A study of Homo sapiens with 12 samples.

Results

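PRDM7, KU-MEL-3, IGFN1 and TRIM63 are 4 genes, of 26364 in the count table, that were picked because their RNA was much lower with MITF siRNA than with scrambled siRNA and because they are not known pigment genes. The RNA came from A2058, a human melanoma line kept in culture as an established line, and was sequenced in bulk as 12 libraries that form 4 groups of 3. In the vector groups the cells were transduced with lentivirus carrying an empty LVX vector or the LVX vector with MITF, and were selected with puromycin. In the siRNA groups they were transfected by lipofection for 48 hours with siRNA against MITF or with a scrambled siRNA (whether these cells were also transduced, and which promoter drives MITF in the vector, the labels do not say). All 4 genes passed the filter on low counts, with 14297 genes tested in all. The choice rests on the contrast of the siRNA groups, so values of that contrast are given for the 4 genes as a description with no test. The contrast of the MITF vector with the empty vector uses other libraries and is the only one tested for them.

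MITF is a basic helix-loop-helix leucine zipper transcription factor of the melanocyte lineage. It binds as a dimer to short DNA elements of the E-box type, among them CACGTG and the variant CATGTG, and is best known for switching on genes of melanin synthesis and of the melanosome. PRDM7, TRIM63 and IGFN1 are known from other settings. PRDM7 encodes a SET domain histone methyltransferase and is a copy, found in primates, of PRDM9, the enzyme that marks sites of meiotic recombination. TRIM63 encodes MuRF1, a RING-type ubiquitin ligase that tags muscle proteins for breakdown by the proteasome, with TRIM54 and TRIM55 as its closest relatives. IGFN1 encodes a protein of skeletal muscle with immunoglobulin-like and fibronectin type III domains. KU-MEL-3 is listed by RefSeq as a long non-coding RNA.

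The 250 bases before the annotated start of each gene are shown because they differ in the MITF-type elements they hold. The sequences are those of RefSeq for GRCh38.p14, where an entry was found for 4 of the 4 genes; the authors' build, hg19, was not used for sequence. They are written 5′ to 3′ on the strand of the gene, in lower case, and capitals mark CATGTG or its longer form TCATGTGA. The windows lie at chr1:26067631-26067880 (minus strand), chr6:4610315-4610564 (plus strand), chr16:90077332-90077581 (minus strand) and chr1:201190574-201190823 (plus strand).
TRIM63: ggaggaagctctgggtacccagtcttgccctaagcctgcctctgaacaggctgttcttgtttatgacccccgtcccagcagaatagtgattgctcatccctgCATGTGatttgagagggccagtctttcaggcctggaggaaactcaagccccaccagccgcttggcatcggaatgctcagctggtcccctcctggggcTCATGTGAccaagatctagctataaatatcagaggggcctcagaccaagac
KU-MEL-3: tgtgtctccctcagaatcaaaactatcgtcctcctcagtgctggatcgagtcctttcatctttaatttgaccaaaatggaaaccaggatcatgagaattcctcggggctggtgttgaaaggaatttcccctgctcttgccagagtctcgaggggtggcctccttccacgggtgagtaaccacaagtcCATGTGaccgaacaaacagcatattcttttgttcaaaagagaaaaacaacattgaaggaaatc
PRDM7: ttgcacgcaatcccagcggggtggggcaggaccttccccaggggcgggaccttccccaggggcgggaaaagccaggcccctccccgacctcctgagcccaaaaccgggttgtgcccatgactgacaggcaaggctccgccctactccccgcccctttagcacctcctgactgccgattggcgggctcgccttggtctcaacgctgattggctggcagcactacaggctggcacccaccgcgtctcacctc
IGFN1: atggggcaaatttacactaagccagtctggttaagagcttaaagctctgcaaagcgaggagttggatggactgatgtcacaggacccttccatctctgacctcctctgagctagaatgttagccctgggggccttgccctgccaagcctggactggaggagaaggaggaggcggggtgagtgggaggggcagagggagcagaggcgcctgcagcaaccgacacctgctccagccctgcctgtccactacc

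The motif CACGTG was searched on both strands, as were the motif CATGTG and its longer form TCATGTGA; TCATGTGA contains CATGTG, so each match to it counts for both. TRIM63 had 2 matches to CATGTG, starting 148 and 50 bases before the start site, and the nearer one lay within a match to TCATGTGA. KU-MEL-3 had 1 match to CATGTG, starting 63 bases before the start site, and no match to the longer form. The windows of PRDM7 and IGFN1 held none of the 3 motifs, which says only that these letters are not in these 250 bases. Of 35116 RefSeq windows of the same length, 9.42% held CATGTG, 6.34% held CACGTG and 0.851% held TCATGTGA. Among the 15216 windows of tested genes the shares were 6.55%, 8.13% and 0.729%. The windows also differed in base composition, with 67.2% G and C for PRDM7, 58.8% for IGFN1, 55.2% for TRIM63 and 45.6% for KU-MEL-3.

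Total counts ran from 7427637 in empty vector replicate 2 to 23938392 in MITF siRNA replicate 3. The MITF vector libraries stood apart from the other 9 along the first principal component, which held 61.3% of the variance, and the nuclear RNA MALAT1 took 1.22% to 1.27% of their counts against 0.273% to 0.758% elsewhere. Both differences ran alongside every comparison with the MITF vector below, and their part in it was not tested. All 10 melanocyte lineage markers passed the filter, with a summed level of 4290 to 8690 CPM per library (CPM is the count scaled to the library's total after TMM). Since IGFN1 and TRIM63 are muscle genes, 10 skeletal muscle markers were read as well: 6 of them, among them MYOD1, MYOG and DES, were at 0 counts in all libraries, none passed the filter, and their summed level lay between 0 and 0.528 CPM. Summed fibroblast markers (5 of 10 tested) lay at 34.6 to 37.7 CPM with the MITF vector, 35.0 to 40.4 with the empty vector, 26.6 to 27.5 with scrambled siRNA and 27.4 to 34.0 with MITF siRNA, and their part in the results was not tested. The labels speak of biological replicates without saying whether each was cultured separately, and the p-values therefore measure only how these libraries spread, which may be technical. MITF itself stood at 304 ± 6.75 CPM with the empty vector, 343 ± 21.4 with MITF siRNA, 467 ± 36.8 with scrambled siRNA and 657 ± 23.3 with the MITF vector (mean ± SD, n = 3 each), and no library of one group overlapped another.

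In the contrast that chose them, the 4 genes were 2.44-fold to 4.01-fold lower with MITF siRNA by the fitted values, while MITF was 1.36-fold lower. They ranked 5th (IGFN1), 9th (KU-MEL-3), 19th (PRDM7) and 32nd (TRIM63) among the falls of all tested genes by log2 fold change. With the same fit 16.7% of tested genes were called lower and 35.4% were called in either direction (Benjamini-Hochberg adjusted p under 0.05 in the quasi-likelihood test of edgeR); nothing is read from this for genes picked on that contrast. In the contrast that did not choose them, 3 of the 4 were called higher with the MITF vector and 1 was called lower. Of all tested genes 28.6% were called higher, 30.8% lower and 59.4% in either direction, so that a call alone was common. By log2 fold change PRDM7, KU-MEL-3 and TRIM63 ranked 16th, 30th and 131st among the rises and IGFN1 50th among the falls.

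**Figure D1:**
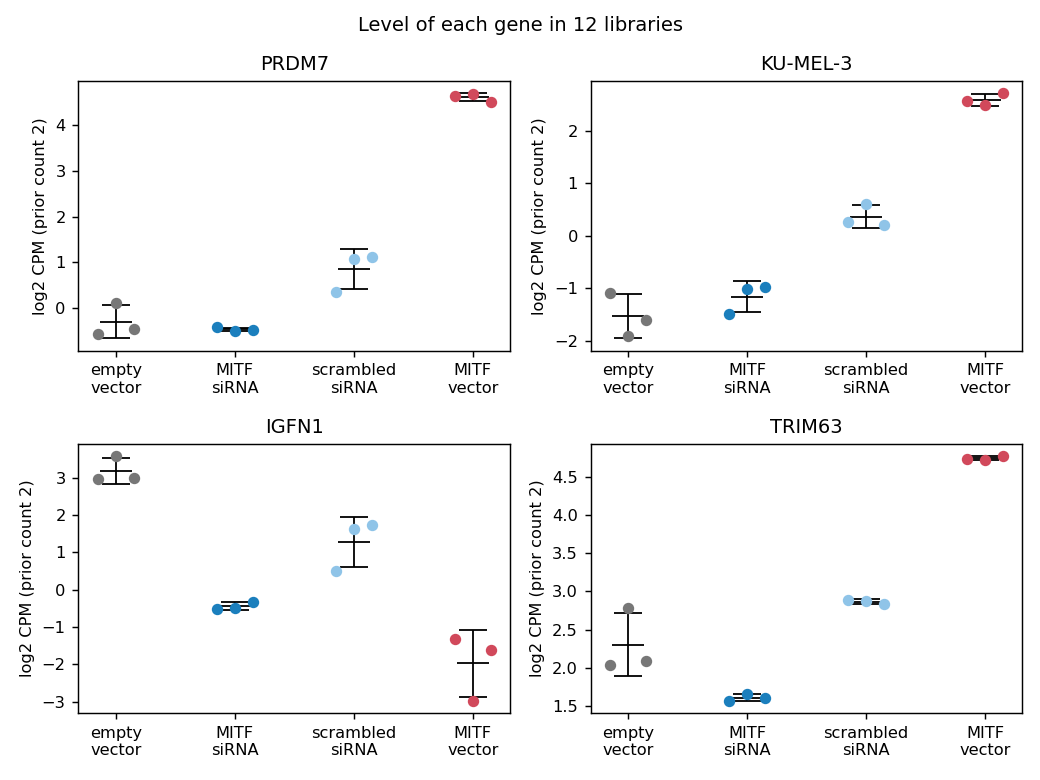
Level of PRDM7, KU-MEL-3, IGFN1 and TRIM63 in each of the 12 libraries, on a log2 CPM scale with a prior count of 2; coloured points are libraries (replicates 1 to 3 from left to right) and black bars show the mean ± SD of 3. PRDM7, KU-MEL-3 and TRIM63 are highest in the MITF vector libraries, whereas IGFN1 is highest in the empty vector libraries and lowest in the MITF vector libraries.

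PRDM7, the histone methyltransferase gene, was at 2.06 CPM or less in the 9 libraries without the MITF vector. With the empty vector its level was 0.551, 0.963 and 0.607 CPM (21 counts in all), and with the MITF vector it was 24.6, 25.7 and 22.8 CPM (1408 counts). The 3 MITF vector libraries lay close together and far above every other library. The rise was 36.3-fold in the fit (log2 fold change 5.18 (SE 0.19), higher in 3 of 3 libraries, adjusted p = 1.87e-22 over all genes by edgeR). With scrambled siRNA the levels were 1.15, 1.97 and 2.06 CPM (71 counts), replicate 1 being the low one, and with MITF siRNA they were 0.624, 0.584 and 0.591 CPM (36 counts). The siRNA groups did not overlap, and the mean with scrambled siRNA was 2.88 times that with MITF siRNA. The MITF siRNA libraries overlapped those of the empty vector.

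PRDM7 and PRDM9 are close copies, so reads could in principle be split between them. PRDM9 had 1 count, in a MITF vector library, and 0 counts in the other 11. Of 4426 distinct windows of 76 bases (the read length) in the GENCODE 29 transcripts of PRDM7, 177, or 4.0%, also occurred in PRDM9, and all of those that were shared with any other gene were shared with PRDM9. With both genes counted as 1, the log2 fold change with the MITF vector was 5.18. The 250 bases before the PRDM9 start aligned to those of PRDM7 with 78.7% identity, 21 mismatches and 36 gap positions, and held none of the 3 motifs either.

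KU-MEL-3, the non-coding RNA, was the rarest of the 4 genes in counts, with 412 over all libraries. Counts were 5, 1 and 2 with the empty vector, which is 0.344, 0.138 and 0.202 CPM; the 95% counting interval of the group's 8 counts runs from 3.45 to 15.8 (exact Poisson, counting error only). With the MITF vector it reached 5.79, 5.49 and 6.4 CPM (336 counts). Each MITF vector library thus lay above each empty vector library, by 22.6-fold in the fit (log2 fold change 4.50 (SE 0.31), adjusted p = 1.39e-14, edgeR). The scrambled siRNA libraries held 1.07, 1.40 and 1.03 CPM (48 counts) and the MITF siRNA libraries 0.227, 0.372 and 0.380 CPM (20 counts). The latter again overlapped the empty vector libraries, and the scrambled siRNA mean was 3.58 times the MITF siRNA mean and 5.13 times the empty vector mean. None of its 1068 windows of 76 bases occurred in transcripts of another gene.

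TRIM63, the ubiquitin ligase gene, was detected at a firmer level in every group. Its level was 3.99, 6.74 and 4.15 CPM in the empty vector libraries (148 counts) and 26.4, 26.2 and 27.2 CPM in the MITF vector libraries (1526 counts). Replicate 2 of the empty vector, the shallowest library, was the high one of its group. The rise was 5.63-fold (log2 fold change 2.49 (SE 0.12), adjusted p = 7.16e-19, edgeR, higher in 3 of 3 libraries). With scrambled siRNA the 3 libraries lay within 6.99 to 7.27 CPM and with MITF siRNA within 2.83 to 3.03 CPM, with means 2.44-fold apart and no overlap. Its MITF siRNA libraries also lay below all empty vector libraries, where MITF was lower, and the ratio of these means was 0.59. This ratio is given without a test, since the MITF siRNA libraries took part in choosing the gene for a low level there. The relatives TRIM54 and TRIM55 had at most 4 and 2 counts in any library, and none of the 2498 windows of 76 bases of TRIM63 occurred in transcripts of another gene.

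IGFN1, the muscle protein gene, fell with the MITF vector and was also lower with MITF siRNA than with scrambled siRNA. It stood at 7.64, 11.8 and 7.79 CPM with the empty vector (274 counts) and at 0.274, 0 and 0.198 CPM with the MITF vector, from 6, 0 and 3 counts. The fall was 53.7-fold in the fit (log2 fold change -5.75 (SE 0.40), adjusted p = 1.12e-10, edgeR, lower in 3 of 3 libraries). As it rests on 9 counts, its size is loosely fixed: the 95% counting interval of those counts runs from 4.12 to 17.1, and the log2 fold change became -6.58 without MITF vector replicate 1 and -5.15 without replicate 2. With scrambled siRNA IGFN1 was at 1.30, 2.95 and 3.16 CPM (102 counts), with replicate 1 the low one as for PRDM7, and with MITF siRNA it was at 0.567, 0.584 and 0.676 CPM (37 counts). The 4 groups did not overlap anywhere. Of 11901 windows of 76 bases, 16 (0.134%) occurred in transcripts of another gene.

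**Figure D2:**
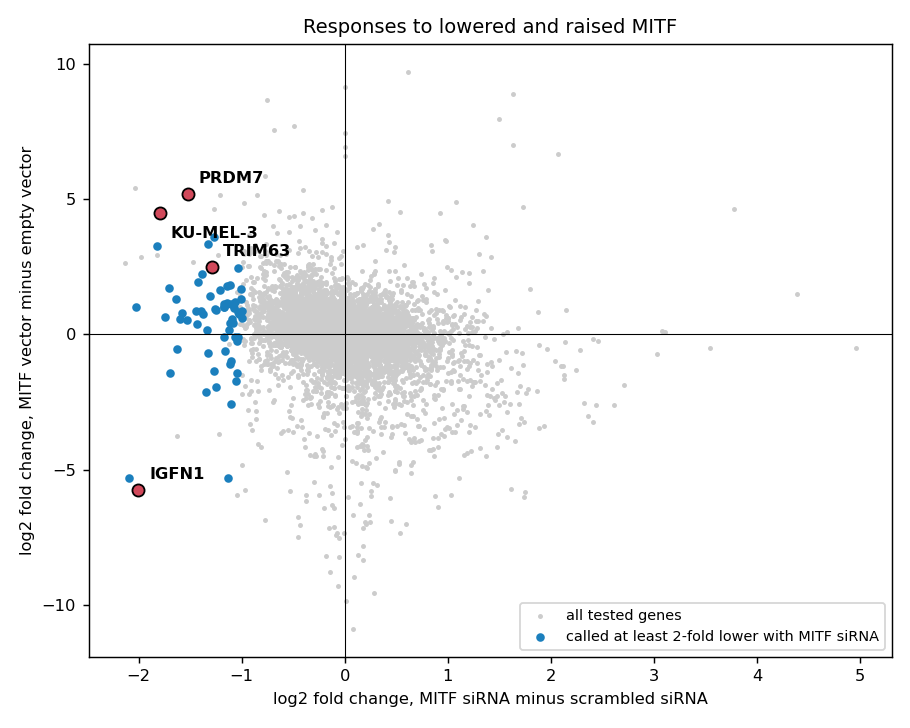
Each point is a tested gene, with its log2 fold change for MITF siRNA minus scrambled siRNA on the x axis and for the MITF vector minus the empty vector on the y axis; blue points were called at least 2-fold lower with MITF siRNA and red points are the 4 genes. PRDM7, KU-MEL-3 and TRIM63 lie above 0 on the y axis, at 5.18, 4.50 and 2.49, and IGFN1 lies at -5.75.

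Over all tested genes, 63 were called at least 2-fold lower with MITF siRNA, a set that includes the 4 genes because they were picked on that contrast. Of these 63, 30 were called higher with the MITF vector, 12 were called lower and 21 were not called. Of the rises 24 and of the falls 11 reached 2-fold, beside 865 rises and 873 falls among all 14297 tested genes. Over all 2384 genes called lower with MITF siRNA, 46.5% were called higher with the MITF vector and 23.7% lower, beside 28.6% and 30.8% of all tested genes. PRDM7, KU-MEL-3 and TRIM63 are among the 24, and IGFN1 is among the 11 and had the lowest log2 fold change of the 63 with the MITF vector. The vector and siRNA contrasts have no library in common.

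Ordered by level, the groups fell differently for the 4 genes, but the step up from MITF siRNA to scrambled siRNA was fixed by how they were picked. Counts per gene symbol do not separate MITF RNA of the vector from that of the cells' own gene. On these counts MITF rose from the empty vector through MITF siRNA and scrambled siRNA to the MITF vector. KU-MEL-3 had its group means in that order, with the lowest neighbours, empty vector and MITF siRNA, overlapping. PRDM7 and TRIM63 had the MITF siRNA mean lowest, then the empty vector, scrambled siRNA and the MITF vector. The lowest neighbours overlapped for PRDM7 and did not for TRIM63. The place of the MITF siRNA group is described without a test, since its libraries took part in choosing the genes. IGFN1 ran from the MITF vector through MITF siRNA and scrambled siRNA to the empty vector, with no overlap between neighbours. Between the controls, scrambled siRNA was above the empty vector for PRDM7 (2.44 times), KU-MEL-3 (5.13 times) and TRIM63 (1.44 times), and MITF itself stood at 1.54 times. For IGFN1 the scrambled siRNA mean was 0.272 of the empty vector mean. These control values are given without a test, since the scrambled siRNA libraries took part in choosing the genes; the controls also differ in how the cells were treated (lentivirus and puromycin, or lipofection).

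**Figure D3:**
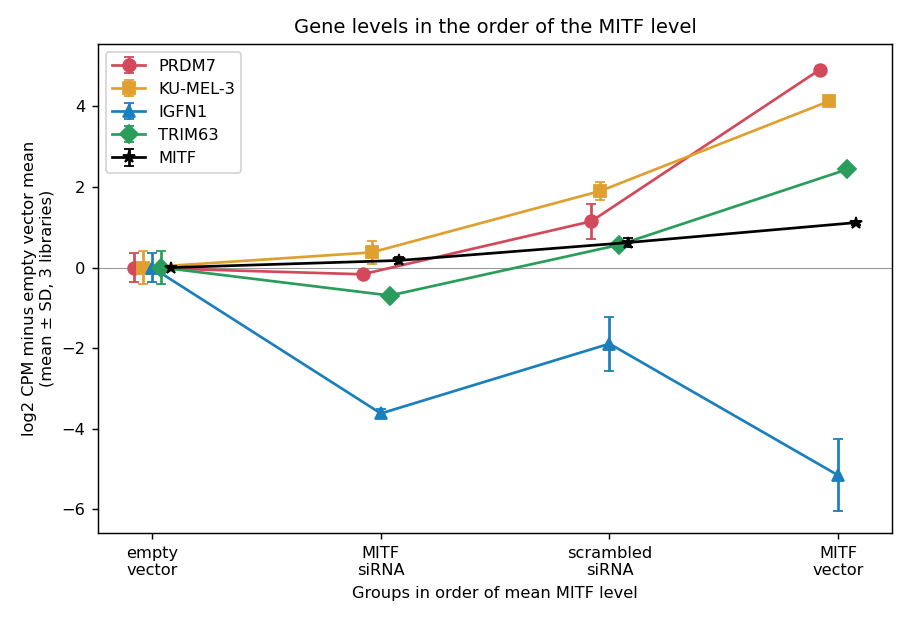
Mean log2 CPM (prior count 2) of MITF and the 4 genes in each group relative to the empty vector mean, with bars for the SD of 3 libraries and the groups placed in the order of their MITF level. The group means of KU-MEL-3 climb in the order of MITF, PRDM7 and TRIM63 dip at MITF siRNA before rising, and IGFN1 lies below its empty vector level in the other 3 groups. Empty vector and MITF siRNA libraries overlap for KU-MEL-3 and PRDM7. The step up from MITF siRNA to scrambled siRNA was fixed by how the 4 genes were picked.

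The genes with the most similar profiles were found by the root mean square distance between log2 CPM profiles over the 12 libraries, each centred on its own mean. Nearest to TRIM63 were MLANA, the melanosome protein also known as Melan-A (distance 0.313), UBAP1L (0.314) and HPGD, an enzyme that degrades prostaglandins (0.329). The mean level of MLANA ran from 62.3 CPM (empty vector) and 59.9 (MITF siRNA) to 110.0 (scrambled siRNA) and 525 (MITF vector). TRPM1, a cation channel gene of melanocytes, was nearest to KU-MEL-3 (0.497), followed by LINC01050 (0.500) and MLANA (0.523). For PRDM7 the nearest were LINC01531 (0.526), TRPM1 (0.587) and TRAF3IP3 (0.609). TRAF3IP3 had group means of 0.0708 to 0.205 CPM outside the MITF vector group. LINC01050 was at 0.272 CPM with the empty vector and 0.216 CPM with MITF siRNA. These means lie near the floor, as 3 counts are 0.125 to 0.404 CPM per library. TRPM1 had means of 10.1, 8.71, 17.0 and 128 CPM in the same order of groups. Known pigment genes were left out of the choice, and 2 of the pigment list, MLANA and TRPM1, were among these nearest genes. The distance includes the MITF siRNA and scrambled siRNA libraries, on which PRDM7, KU-MEL-3 and TRIM63 were picked. It also includes the vector libraries, in which they rose. Any gene lower with MITF siRNA and higher with the MITF vector can therefore come near them, so this nearness was not a separate test.

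IGFN1 had other neighbours in profile. They were ESM1, which encodes a secreted proteoglycan (distance 0.676), the cytokine gene IL11 (0.684) and G0S2, an inhibitor of lipolysis (0.727). ESM1 fell from 2.36 to 0.0456 CPM with the MITF vector (log2 fold change -5.31) and IL11 from 16.4 to 0.457 CPM (-5.09). G0S2 dropped from 11.1 to 0.241 CPM (-5.47). The vector libraries took part in finding these genes, so their falls are given as a description with no test. In the siRNA contrast the log2 fold change was -2.10 for ESM1, -0.56 for IL11 and -0.30 for G0S2, beside -2.004 for IGFN1. ESM1 was rare, with 0.798 CPM in scrambled siRNA and 0.174 CPM in MITF siRNA libraries. Its mean with the MITF vector lay below 3 counts, which are 0.141 to 0.204 CPM in those libraries, so its fold changes are loosely fixed. Between the 4 genes themselves, distances were 0.710 for PRDM7 and KU-MEL-3, 0.725 for KU-MEL-3 and TRIM63 and 0.958 for PRDM7 and TRIM63, against 2.78 to 3.69 for IGFN1 with each of the others. All of these profiles include the difference between the MITF vector libraries and the other 9.

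The families and settings in which the 4 genes are known were read from fixed lists, without the 4 genes. Of all 14297 tested genes, 28.6% were called higher and 30.8% lower with the MITF vector. With MITF siRNA 2673 of them were called higher and 2384 lower. Of 16 other PRDM family genes, 9 were tested; PRDM10 rose with the MITF vector (log2 fold change 0.47 (SE 0.08), adjusted p = 2.88e-06), PRDM1, a transcriptional repressor known as BLIMP1, fell (-1.14 (SE 0.24), adjusted p = 1.46e-04), and the median was 0.08, beside 0.0037 over all tested genes. Methyltransferases of histone H3 lysines 4 and 36 leaned upward against the empty vector, with 11 of 18 higher and 2 lower (median 0.24). KMT2C was at 0.74 (SE 0.06) and ASH1L at 0.43 (SE 0.05). KMT2C stood at 67.7 CPM with the empty vector, 115 with MITF siRNA, 107 with scrambled siRNA and 113 with the MITF vector. ASH1L stood at 113, 134, 142 and 152 CPM in the same order of groups. For both, the siRNA groups also lay above the empty vector. In the meiotic recombination list, where 16 of 30 genes were tested, 5 rose and 3 fell (median 0.36). TEX15 went from 24.2 to 48.3 CPM (1.01 (SE 0.07), adjusted p = 6.02e-14) and HELLS, a chromatin remodeller that works with PRDM9, from 69.1 to 94.2 CPM (0.46 (SE 0.06)). With MITF siRNA 1 PRDM gene was called higher and 1 lower, 3 methyltransferases were called higher and 3 lower, and 3 meiotic genes were called, each higher (medians -0.03, -0.05 and 0.12, against -0.0026 over all genes).

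Of 53 genes of the sarcomere and muscle structure only 15 were tested and 6 had no count in any library. With the MITF vector 5 rose and 6 fell (median 0.12), and with MITF siRNA 5 rose and 4 fell (median -0.13). Over all tested genes 28.6% rose and 30.8% fell with the vector, and 16.7% fell with MITF siRNA. MYPN, the gene of the Z-disc protein myopalladin, fell from 14.8 to 0.784 CPM with the MITF vector (log2 fold change -4.25 (SE 0.22)), as IGFN1 did, but rose with MITF siRNA (0.82 (SE 0.21), adjusted p = 0.00294). MYOZ2, another Z-disc gene, also fell with the vector (-3.46 (SE 0.26)) and rose with siRNA, from 1.91 to 7.09 CPM (1.89 (SE 0.18), adjusted p = 2.18e-10). TNNT1, a troponin gene, went the other way with the vector, from 21.4 to 50.1 CPM (1.24 (SE 0.07)).

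TRIM63 shares with the TRIM proteins of a list of 8 the COS box, a segment known for binding to microtubules. Of these 8 genes 4 were tested, and 2 of them were called with the MITF vector, each lower (median -0.48): TRIM9 from 30.4 to 10.3 CPM (log2 fold change -1.58 (SE 0.08)) and MID1 from 59.6 to 31.2 CPM (-0.93 (SE 0.07)). The other two stood at 0.59 (SE 0.30) for TRIM46 and -0.03 (SE 0.14) for TRIM36 and did not pass the test. With MITF siRNA 1 of the 4 was called, TRIM9, which rose (0.32 (SE 0.06), adjusted p = 1.85e-04, edgeR), and the median was 0.21. In the muscle atrophy and FoxO list 8 of 23 tested genes rose and 7 fell (median 0.03), beside 28.6% and 30.8% of all tested genes. FBXO32, the gene of atrogin-1, a ubiquitin ligase that is often induced together with TRIM63 in wasting muscle, rose from 140 to 228 CPM (0.70 (SE 0.05), adjusted p = 2.34e-14), with a log2 fold change of -0.02 (SE 0.05) under MITF siRNA. NEDD4, a ubiquitin ligase gene of another family, fell (-1.49 (SE 0.06)). With MITF siRNA 2 genes of this list rose and 8 fell (median -0.07), while 16.7% of all tested genes fell.

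For comparison, in the pigment list that the choice left out, 19 of 27 tested genes rose and 4 fell with the MITF vector (median 1.00), and 1 rose and 18 fell with MITF siRNA (median -0.36). The shares over all tested genes were 28.6% higher and 30.8% lower with the vector, and 16.7% lower with MITF siRNA. MLANA, with a log2 fold change of 3.08 (SE 0.06), and TSPAN10, a tetraspanin gene, with 2.92 (SE 0.12), were among the pigment genes of the smallest adjusted p. PRDM7 and KU-MEL-3 lay above both in log2 fold change and TRIM63 below both. Among melanoma and cancer-testis antigens, 14 of 36 genes in the table were tested, 5 rose and 4 fell with the MITF vector (median 0.03), with PAGE5 at 0.90 (SE 0.06) and MAGEA1 at -1.17 (SE 0.10), and 2 rose and 1 fell with MITF siRNA.

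By RefSeq the 4 genes lie on chromosomes 16 (PRDM7), 6 (KU-MEL-3) and 1 (IGFN1 and TRIM63), and 0 other RefSeq genes overlap any of them. PRDM7 is the last tested gene of its chromosome arm. The 5 tested genes beside it had log2 fold changes of -0.09 to 0.83 with the MITF vector, and 3 of the 5 were called higher: URAHP (0.83 (SE 0.29)), GAS8-AS1 (0.52 (SE 0.22)) and GAS8 (0.46 (SE 0.07)). Over all tested genes 28.6% were called higher. GAS8-AS1 runs antisense to GAS8 and its reads may not be told apart from it. GAS8, a gene of the axoneme of cilia, also fell with MITF siRNA (-0.27 (SE 0.07), adjusted p = 0.00132). These changes were small beside the 5.18 of PRDM7. Among the 10 neighbours of KU-MEL-3 the range was -0.98 to 0.66, with ECI2 at 0.03 (SE 0.06) and CDYL, a chromodomain protein gene, at 0.33 (SE 0.05) on either side.

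The neighbours of IGFN1 ranged from -0.79 to 1.01 with the MITF vector, and 3 were called higher and 4 lower, beside 28.6% and 30.8% of all tested genes. TMEM9 next to it was at -0.05 (SE 0.06) and PHLDA3, a target gene of p53, on the other side at -0.55 (SE 0.06), while the kinesin gene KIF21B reached 1.01 (SE 0.10). Beside TRIM63, SLC30A2, a zinc transporter gene, was the one neighbour past 2-fold, with 1.48 (SE 0.46, adjusted p = 0.00577). SLC30A2 was rare, with a mean log2 CPM of -0.034. It also stood above the empty vector with scrambled siRNA (log2 fold change 1.17) and with MITF siRNA (0.82), values given without a test. On the other side of TRIM63, PDIK1L was at -0.12 (SE 0.08) with the MITF vector. In the siRNA contrast the 35 neighbours of the 4 genes ranged from -0.64 to 0.64.

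**Figure D4:**
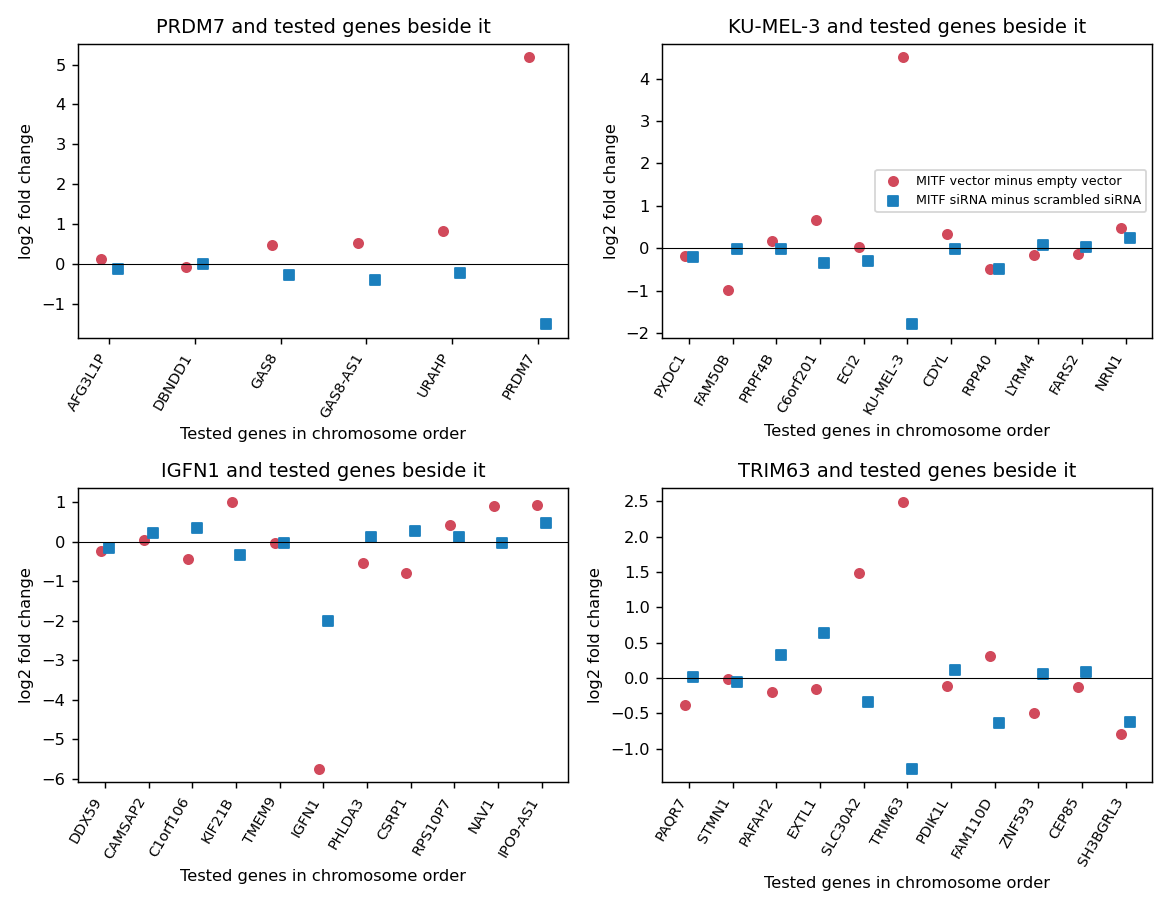
Log2 fold changes of each of the 4 genes and of up to 5 tested genes on each side, in RefSeq gene order; red circles show the MITF vector minus the empty vector and blue squares MITF siRNA minus scrambled siRNA. With the MITF vector the named gene lies farther from 0 than its neighbours in each panel (its siRNA value was used to pick it), and beside TRIM63 SLC30A2 reaches 1.48 with the MITF vector.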

How the data were processed

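RNA was measured as gene counts in 12 libraries. The submitters' processing notes list the genome build hg19 and, as tools, featureCounts 1.6.3, STAR 2.6.0, SAMtools 1.10 and bcl2fastq 2.18.0. Their settings (strand, multi-mapping reads) are not given in those notes. The authors deposited raw whole-number counts in 1 table of 26364 gene symbols; 0 columns went unused. A file of read file names and checksums was not used.

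Genes were filtered with filterByExpr (minimum count 10; 14297 kept, at least 99.9% of each library's counts), scaled by TMM and fitted together as group means with edgeR 4.0.16 (quasi-likelihood, robust; limma 3.58.1, R 4.3.3); Benjamini-Hochberg adjusted p under 0.05 over all tested genes was called. A standard error is the size of the log2 fold change divided by the square root of F. PRDM7 and KU-MEL-3 passed the filter through the MITF vector and scrambled siRNA groups, IGFN1 through the empty vector and scrambled siRNA groups, and TRIM63 through all 4. Floors: 3 counts are 0.125 to 0.404 CPM per library; intervals and floors cover counting error only.

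On simulated data (14124 genes for the vector comparison) 50 genes were changed at each fold, in both directions. The test recovered 58% of genes changed 1.25-fold, 88% at 1.5-fold, 98% at 2-fold and 100% at 4-fold, with 17 of 189 calls false. In the real vector comparison 59.4% of genes were called, so the simulated setting differs and these rates cannot be carried over to it.

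The 4 genes and the gene lists were chosen with earlier results of these data known. Other genes were named by rule: the closest relatives, the 3 nearest profiles, up to 4 called genes per list by adjusted p, and the nearest neighbours or those past 2-fold; the text gives a part. GRCh38.p14 gene order, biotype and promoter windows come from RefSeq, 76-base windows from GENCODE 29. Alternatives were RLE scaling, DESeq2 1.42.0, no filter, a replicate block, only the 2 groups compared, leaving out each library, and summing PRDM7 with PRDM9.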

Additional observations from a re-analysis of the deposited data

How the results depend on the processing

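With the MITF vector all 4 genes kept their direction and their call under every alternative run. Leaving out 1 library at a time gave log2 fold changes of 4.99 to 5.39 for PRDM7, 4.32 to 5.005 for KU-MEL-3, 2.33 to 2.71 for TRIM63 and -6.58 to -5.15 for IGFN1 (lowest and highest without MITF vector replicates 1 and 2), with no adjusted p above 2.59e-08. Over all alternatives the number of genes called was 7662 to 8804 with the MITF vector and 4119 to 5148 with MITF siRNA. Without the filter, 2 PRDM family genes in place of 1 were called higher with the MITF vector, and 7 antigen genes in place of 4 were called lower; with MITF siRNA 2 antigen genes in place of 1 were called lower. Same-numbered libraries deviated from their group means with correlations of -0.121 to 0.0643, so the numbers were not taken as pairs; 0 of 6 libraries in the vector comparison and 2 of 6 in the siRNA comparison correlated best with their own number. With a replicate block the log2 fold changes were 5.17 for PRDM7, 4.50 for KU-MEL-3, 2.49 for TRIM63 and -5.77 for IGFN1, and 8408 genes were called. Depth limits KU-MEL-3 and PRDM7 in the empty vector group and IGFN1 in the MITF vector group, where each library held at most 8 counts.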
